A study of Mus musculus with 6 samples.

Results

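The data concern 35 genes that mark macrophages and other myeloid cells, followed in 6 RNA-seq libraries of mouse aorta. They were chosen by name as pan-macrophage and myeloid markers, with earlier results of these data known. All 35 were found among the 27815 gene identifiers of the files. The ApoE group (2 libraries) was made from ApoE-/- C57BL/6 mice that lack apolipoprotein E, a ligand for lipoprotein uptake, and were kept on chow to 16 months of age, when their plaques were calcified. The CKD group (2 libraries) was made from C57BL/6 mice with chronic kidney disease, modelled by removing the poles of the left kidney at 8 weeks and the right kidney after 1 week of recovery, followed by 4 weeks on 2% phosphate food and 0.45% NaCl water, which calcifies the medial layer. The Ctrl group (2 libraries) was made from wild-type C57BL/6 mice aged 2 months, with no operation and no special food named. The age label of the CKD libraries says 16 months, which conflicts with the operation at 8 weeks, so their age is uncertain. Genotype and age differ together between ApoE and Ctrl and cannot be told apart. Nothing in the labels says that the libraries of a group came from separate animals rather than pools. The p-values therefore rest on differences between libraries that may be technical replicates.

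Macrophages are the phagocytes of the arterial wall. Resident ones live mainly in the adventitia, and in atherosclerosis blood monocytes enter the intima, take up lipoprotein and become foam cells. The lineage is specified by the transcription factor PU.1 and kept alive by signals through the receptor for colony-stimulating factor. Its cells carry integrins of the CD18 family for adhesion, Fc receptors for antibody-coated particles, and paired inhibitory receptors that restrain them. Several of the 35 genes are also used by neutrophils, dendritic cells, B cells or T cells, so a level in whole aorta is a sum over cell types. In whole tissue, fewer cells of a type and less RNA per cell cannot be told apart.

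On the scale the values imply, depth was 14.4 to 16.6 M reads a library, so that 1 read added 0.0300 to 0.0346 FPKM (reads per kilobase of exon and M reads) to a gene of 2 kb. The member with the fewest recovered reads in a Ctrl library was Clec7a, with 31. Apoe, the gene disrupted in the ApoE mice, stood at 13.2 and 11.4 FPKM in the ApoE libraries, at 1410 and 1447 in the CKD libraries and at 756 and 627 in the Ctrl libraries. The mitochondrial share of reads was 9.66% and 10.9% in the ApoE libraries, 9.99% and 5.70% in the CKD libraries and 3.13% and 4.19% in the Ctrl libraries. Tests were run with limma on log2(FPKM + 1) over 14074 genes, those that reached 1 FPKM in 2 or more libraries, and a gene was called at a Benjamini-Hochberg adjusted p below 0.05. A fold change on that scale understates the change of low genes. All 35 myeloid genes passed the filter on low values, and Itgam and Lilrb4a were under 1 FPKM in both Ctrl libraries.

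PU.1, encoded by Spi1, binds DNA at a core that reads GAGGAA, or TTCCTC on the other strand. RefSeq start sites (GRCm38.p6) were available for 25 of the 35 genes, and the 250 bases before the start were searched on both strands for these letters. At least 1 match lay in 11 of the 25 windows (44.0%), and in 6252 of the 27025 windows of all genes (23.1%). At least 2 matches lay in 2 member windows (8.00%) and in 3.57% of all windows. The 11 were those of Cd68, Clec7a, Plek, Laptm5, Cd53, Pirb, Fcgr1, Fcgr3, Aif1, Itgam and Ptprc. The windows of Mpeg1, Itgax and Lyz2, which showed some of the largest differences between ApoE and Ctrl, held no match. A match is a description of letters and not a binding site. The windows below belong to the members with the 2 largest and the 2 smallest ApoE versus Ctrl changes among those that hold the core and lie outside the annotated gene. They are written 5′ to 3′ on the strand of the gene, and capitals mark the core or its complement.
Cd68 chr11:69666171-69666420 (minus strand): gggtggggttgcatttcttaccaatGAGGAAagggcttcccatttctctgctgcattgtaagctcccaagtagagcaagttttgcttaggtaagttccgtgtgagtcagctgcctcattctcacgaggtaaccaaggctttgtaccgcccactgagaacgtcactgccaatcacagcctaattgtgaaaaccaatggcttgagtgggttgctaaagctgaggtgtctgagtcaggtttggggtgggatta
Clec7a chr6:129472780-129473029 (minus strand): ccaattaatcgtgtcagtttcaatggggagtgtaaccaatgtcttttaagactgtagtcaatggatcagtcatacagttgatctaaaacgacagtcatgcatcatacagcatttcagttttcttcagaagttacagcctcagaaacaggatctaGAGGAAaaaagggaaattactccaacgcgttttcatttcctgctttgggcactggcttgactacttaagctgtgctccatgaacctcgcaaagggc
Fcgr1 chr3:96293970-96294219 (minus strand): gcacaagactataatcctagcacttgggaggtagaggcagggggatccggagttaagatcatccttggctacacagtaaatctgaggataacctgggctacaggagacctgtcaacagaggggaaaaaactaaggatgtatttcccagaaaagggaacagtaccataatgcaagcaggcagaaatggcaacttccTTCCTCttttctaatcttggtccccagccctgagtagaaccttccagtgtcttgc
Itgam chr7:128062390-128062639 (plus strand): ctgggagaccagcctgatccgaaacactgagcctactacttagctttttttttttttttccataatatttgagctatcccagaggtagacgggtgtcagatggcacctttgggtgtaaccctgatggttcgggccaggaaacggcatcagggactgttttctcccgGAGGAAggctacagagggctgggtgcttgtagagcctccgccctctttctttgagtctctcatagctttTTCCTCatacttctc

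The myeloid genes were far more abundant in ApoE aortas than in Ctrl aortas. Of the 35, 34 were called higher and 0 lower in ApoE, while 19.8% of all genes tested were called higher and 24.3% lower. Both ApoE libraries stood above both Ctrl libraries for 35 of 35 genes, which held for 36.4% of all genes tested. The median log2 fold change of the 35 was 3.09, beside -0.07 for all genes, and the median ratio of group means was 12.2. Summed over the 35, the level was 6866 and 10527 FPKM in the ApoE libraries, 838 and 1415 in the CKD libraries and 462 and 456 in the Ctrl libraries. The same genes took 1.34% and 1.82% of reads in the ApoE libraries, 0.157% and 0.268% in the CKD libraries and 0.0947% and 0.0956% in the Ctrl libraries. Without Lyz2, by far the most abundant of them, the sums were 2980 and 3287 FPKM in ApoE, 325 and 543 in CKD and 213 and 221 in Ctrl.

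**Figure D1:**
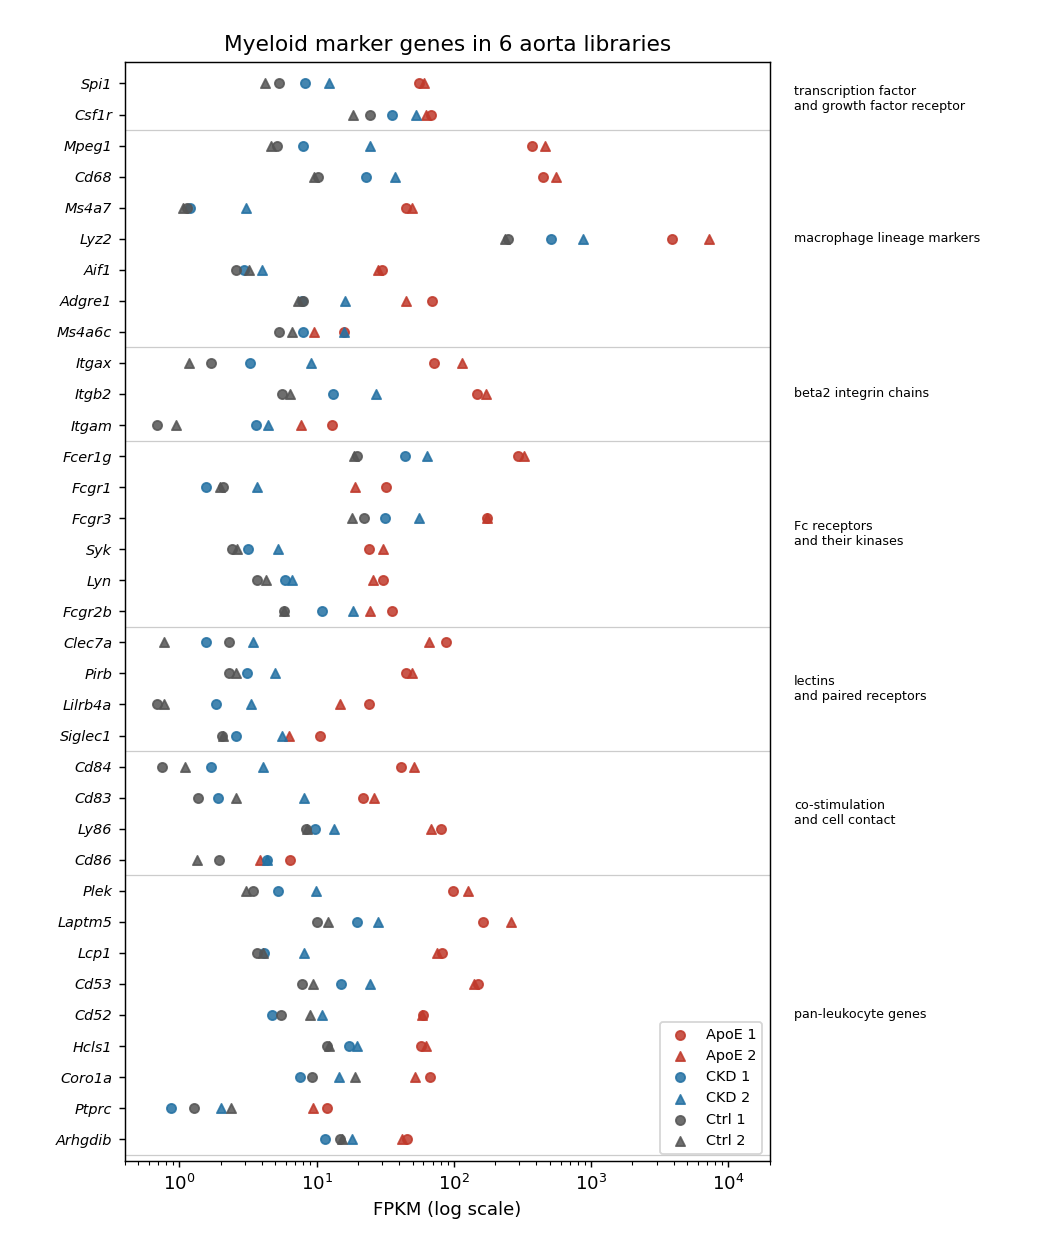
FPKM of each of the 35 genes on a log axis, 1 row a gene in 7 role groups, with red symbols for the ApoE libraries, blue for the CKD libraries and grey for the Ctrl libraries (circles for library 1, triangles for library 2). In 33 rows both red symbols lie to the right of all others, and in the rows of Ms4a6c and Cd86 a red symbol falls among or beside the blue ones.

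Spi1 (ENSMUSG00000002111, chromosome 2, 91082390 to 91115756, plus strand) encodes PU.1, the master regulator of the myeloid lineage. It stood at 55.97 and 60.5 FPKM in the ApoE libraries, 8.18 and 12.4 in the CKD libraries and 5.31 and 4.22 in the Ctrl libraries. No group overlapped another, and the ApoE level was 12.2 times the Ctrl level (log2 3.37, SE 0.21, adjusted p = 0.000303). Csf1r (ENSMUSG00000024621, chromosome 18, 61100598 to 61132149, plus strand), the receptor for CSF1 and IL-34 on which most macrophages depend, stood at 68.4 and 62.4 FPKM in the ApoE libraries, 35.4 and 53.1 in the CKD libraries and 24.4 and 18.4 in the Ctrl libraries. Its order of groups was that of Spi1, and the ApoE level was 3.06 times that of Ctrl (log2 1.58, SE 0.24, adjusted p = 0.00428). Spi1 and Csf1r thus both rose in ApoE.

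Among the macrophage lineage markers, Mpeg1 (ENSMUSG00000046805, chromosome 19, 12460779 to 12465283, plus strand), which encodes the phagosomal pore-forming protein perforin-2, stood at 371 and 464 FPKM in the ApoE libraries, 7.93 and 24.3 in the CKD libraries and 5.10 and 4.63 in the Ctrl libraries. This was the largest difference of the 35, 85.7-fold over Ctrl (log2 6.15, SE 0.47, adjusted p = 0.000459). Cd68 (ENSMUSG00000018774, chromosome 11, 69664213 to 69666153, minus strand), a glycoprotein of lysosomal membranes, stood at 449 and 559 FPKM in the ApoE libraries, 22.8 and 37.1 in the CKD libraries and 10.2 and 9.62 in the Ctrl libraries. The ApoE mean was 50.8 times the Ctrl mean (log2 5.52, SE 0.25, adjusted p = 0.000176), and the CKD libraries lay between. Lyz2 (ENSMUSG00000069516, chromosome 10, 117277331 to 117282321, minus strand), the lysozyme of macrophages and neutrophils, stood at 3885 and 7240 FPKM in the ApoE libraries, 513 and 872 in the CKD libraries and 249 and 235 in the Ctrl libraries. It ranked 7 among all genes in both ApoE libraries, 69 and 29 in the CKD libraries, and 141 and 155 in the Ctrl libraries. Its log2 fold change was 4.45 (SE 0.39). The near-identical Lyz1 had 12.6 and 26.5 FPKM in ApoE, 13.9 and 42.4 in CKD and 6.28 and 5.34 in Ctrl, and reads of the pair may have been split between them.

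Ms4a7, a membrane-spanning protein of the MS4A family, stood at 45.1 and 49.8 FPKM in the ApoE libraries, 1.18 and 3.05 in the CKD libraries and 1.13 and 1.05 in the Ctrl libraries, and rose by a log2 of 4.53 (SE 0.28). CKD library 1 was close to both Ctrl libraries. Aif1, an actin-binding protein widely stained as a macrophage marker, rose by 2.95 (SE 0.16), and Adgre1, the adhesion receptor used to sort mouse macrophages, rose by 2.71 (SE 0.35). Ms4a6c (ENSMUSG00000079419, chromosome 19, 11469366 to 11482192, plus strand), another gene of the MS4A cluster, stood apart at 15.9 and 9.55 FPKM in the ApoE libraries, 7.95 and 15.7 in the CKD libraries and 5.34 and 6.64 in the Ctrl libraries. Its ApoE and CKD libraries overlapped, and it was the 1 member not called against Ctrl (log2 0.94, SE 0.36, adjusted p = 0.0768). Ms4a7 and Ms4a6c lie 133 kb apart on chromosome 19. The close relatives of Ms4a6c did not show a single pattern: Ms4a6d had 98.8 and 68.6 FPKM in ApoE, 16.4 and 30.3 in CKD and 9.49 and 8.76 in Ctrl, while Ms4a6b had 11.6 and 6.79 in ApoE, 8.40 and 15.8 in CKD and 6.00 and 7.50 in Ctrl.

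All 3 integrin chain genes rose in ApoE. Itgax (ENSMUSG00000030789, chromosome 7, 128129547 to 128150657, plus strand), which encodes CD11c, the alpha chain of complement receptor 4 and a marker shared with dendritic cells, stood at 71.1 and 115 FPKM in the ApoE libraries, 3.25 and 9.04 in the CKD libraries and 1.70 and 1.18 in the Ctrl libraries. Its ApoE mean was 64.6 times the Ctrl mean (log2 5.24, SE 0.44, adjusted p = 0.000607). Itgam (ENSMUSG00000030786, chromosome 7, 128062640 to 128118491, plus strand), which encodes CD11b, the alpha chain of complement receptor 3, stood at 12.96 and 7.75 FPKM in the ApoE libraries, 3.61 and 4.44 in the CKD libraries and 0.682 and 0.947 in the Ctrl libraries. It was low in Ctrl, and all 4 other libraries were above both Ctrl libraries (log2 2.61, SE 0.24, adjusted p = 0.000857 for ApoE). The genes of these alpha chains are neighbours, 11.1 kb apart on chromosome 7 with 0 genes between. Itgb2 (ENSMUSG00000000290, chromosome 10, 77530252 to 77565708, plus strand), the beta chain that pairs with both, stood at 147 and 172 FPKM in the ApoE libraries, 13.3 and 27.1 in the CKD libraries and 5.61 and 6.43 in the Ctrl libraries (log2 4.51, SE 0.32, adjusted p = 0.000396).

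All 6 Fc receptor and kinase genes rose in ApoE. Fcer1g (ENSMUSG00000058715, chromosome 1, 171229572 to 171234365, minus strand), the gamma chain through which activating Fc receptors signal, stood at 295 and 325 FPKM in the ApoE libraries, 44.1 and 63.5 in the CKD libraries and 19.8 and 18.7 in the Ctrl libraries. The 3 groups did not overlap, and ApoE exceeded Ctrl 16.1-fold (log2 3.94, SE 0.21, adjusted p = 0.000211). Fcgr2b (ENSMUSG00000026656, chromosome 1, 170958617 to 170976547, minus strand), the inhibitory receptor for IgG, stood at 35.1 and 24.5 FPKM in the ApoE libraries, 10.9 and 18.5 in the CKD libraries and 5.77 and 5.76 in the Ctrl libraries. Its ApoE level was 5.17 times that of Ctrl (log2 2.17, SE 0.28, adjusted p = 0.00236), the smallest change of this group. The activating receptors Fcgr1 and Fcgr3 rose by 3.09 (SE 0.35) and 3.07 (SE 0.28) on the log2 scale, and the kinases Syk and Lyn by 3.01 (SE 0.23) and 2.54 (SE 0.14). Fcgr2b, Fcgr3 and Fcer1g share a stretch of chromosome 1, with gaps of 74.6 kb and 165 kb between them.

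Of the lectins and paired receptors, Clec7a (ENSMUSG00000079293, chromosome 6, 129461591 to 129472779, minus strand), which encodes the beta-glucan receptor dectin-1, stood at 88.3 and 65.7 FPKM in the ApoE libraries, 1.56 and 3.44 in the CKD libraries and 2.30 and 0.776 in the Ctrl libraries. The ApoE libraries were far above the rest, and the CKD libraries overlapped the Ctrl libraries (log2 4.99, SE 0.38, adjusted p = 0.000486 for ApoE versus Ctrl). Pirb, an inhibitory receptor for MHC class I, stood at 44.8 and 49.2 FPKM in the ApoE libraries, 3.09 and 4.94 in the CKD libraries and 2.31 and 2.60 in the Ctrl libraries (log2 3.79, SE 0.20, adjusted p = 0.000211). Lilrb4a, another inhibitory receptor of the immunoglobulin family, stood at 24.2 and 14.9 FPKM in the ApoE libraries, 1.86 and 3.31 in the CKD libraries and 0.690 and 0.771 in the Ctrl libraries (log2 3.53, SE 0.28, adjusted p = 0.000552). Both inhibitory receptors separated all 3 groups, with ApoE highest. Siglec1, the sialic acid receptor of resident macrophages, stood at 10.6 and 6.34 FPKM in the ApoE libraries, 2.57 and 5.59 in the CKD libraries and 2.04 and 2.06 in the Ctrl libraries. Its CKD library 2 nearly reached ApoE library 2, and it was called against Ctrl (log2 1.60, SE 0.34, adjusted p = 0.0136). That call was lost without Ctrl library 1, Ctrl library 2 or ApoE library 1, with adjusted p of 0.0594 to 0.0756. Pira2, a close relative of Pirb, had 2.94 and 5.75 FPKM in ApoE, 0.0586 and 0.120 in CKD and 0 and 0.172 in Ctrl.

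The 4 co-stimulation and contact genes all rose in ApoE. Cd84, a homophilic receptor of the SLAM family, stood at 41.2 and 51.4 FPKM in the ApoE libraries, 1.70 and 4.05 in the CKD libraries and 0.747 and 1.10 in the Ctrl libraries (log2 4.62, SE 0.31, adjusted p = 0.000342). Cd83, an activation marker of antigen-presenting cells, stood at 21.6 and 26.3 FPKM in the ApoE libraries, 1.92 and 8.05 in the CKD libraries and 1.36 and 2.59 in the Ctrl libraries (log2 3.09, SE 0.53, adjusted p = 0.00627). Ly86, the secreted partner of the Toll-like receptor relative RP105, stood at 81.00 and 68.4 FPKM in the ApoE libraries, 9.70 and 13.5 in the CKD libraries and 8.38 and 8.55 in the Ctrl libraries (log2 2.995, SE 0.18, adjusted p = 0.000278). Cd86, the ligand for CD28 on T cells, stood at 6.38 and 3.90 FPKM in the ApoE libraries, 4.34 and 4.37 in the CKD libraries and 1.94 and 1.34 in the Ctrl libraries (log2 1.20, SE 0.23, adjusted p = 0.00918). For Cd84 the ApoE libraries were far above every other library, whereas for Cd86 an ApoE library was below both CKD libraries. Cd83 lost its call against Ctrl without ApoE library 2 (adjusted p = 0.0518) and Cd86 without Ctrl library 2 (adjusted p = 0.0562).

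The pan-leukocyte genes, which white blood cells in general express, all rose in ApoE, 9 of 9. Plek (ENSMUSG00000020120, chromosome 11, 16971206 to 17052381, minus strand), a protein kinase C substrate, stood at 98.6 and 127 FPKM in the ApoE libraries, 5.26 and 9.92 in the CKD libraries and 3.43 and 3.06 in the Ctrl libraries and had the largest change (log2 4.74, SE 0.28, adjusted p = 0.000271). Arhgdib, an inhibitor of small GTPases in blood cells, stood at 45.3 and 41.8 FPKM in the ApoE libraries, 11.5 and 18.01 in the CKD libraries and 14.9 and 15.3 in the Ctrl libraries and had the smallest (log2 1.47, SE 0.21, adjusted p = 0.00355). Ptprc (ENSMUSG00000026395, chromosome 1, 138062861 to 138175708, minus strand), the CD45 phosphatase, stood at 11.9 and 9.33 FPKM in the ApoE libraries, 0.864 and 2.01 in the CKD libraries and 1.28 and 2.39 in the Ctrl libraries (log2 2.06, SE 0.30, adjusted p = 0.00375). Its 2 Ctrl libraries differed from each other and overlapped the CKD libraries. Its call against Ctrl was lost with the level of adipocyte genes as a covariate (log2 2.37, adjusted p = 0.0639). Between these stood Laptm5, a lysosomal protein, with a log2 of 4.11 (SE 0.28), the actin bundler Lcp1 with 4.03 (SE 0.27), the tetraspanin Cd53 with 3.93 (SE 0.24), the small surface glycoprotein Cd52 with 2.89 (SE 0.37), the cortactin relative Hcls1 with 2.23 (SE 0.13) and the actin regulator Coro1a with 2.06 (SE 0.41). Coro1a was not called without ApoE library 1 (adjusted p = 0.0681) or without ApoE library 2 (adjusted p = 0.0521).

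Exons of 11 members overlap another annotated gene, and without strand in the library kit their reads cannot be told apart. These are Csf1r, Itgam, Fcgr2b, Cd52, Coro1a, Lcp1, Lilrb4a, Ms4a6c, Lyn, Plek and Arhgdib. Of the partners, Hmgxb3 (Csf1r) had 3.74 to 4.67 FPKM in the 6 libraries, Bola2 (Coro1a) 3.50 to 8.22, Cnrip1 (Plek) 1.80 to 10.9 and BE692007 (Ms4a6c) 0.482 to 1.85. The partners of Cd52 and Arhgdib did not exceed 0.101 FPKM.

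**Figure D2:**
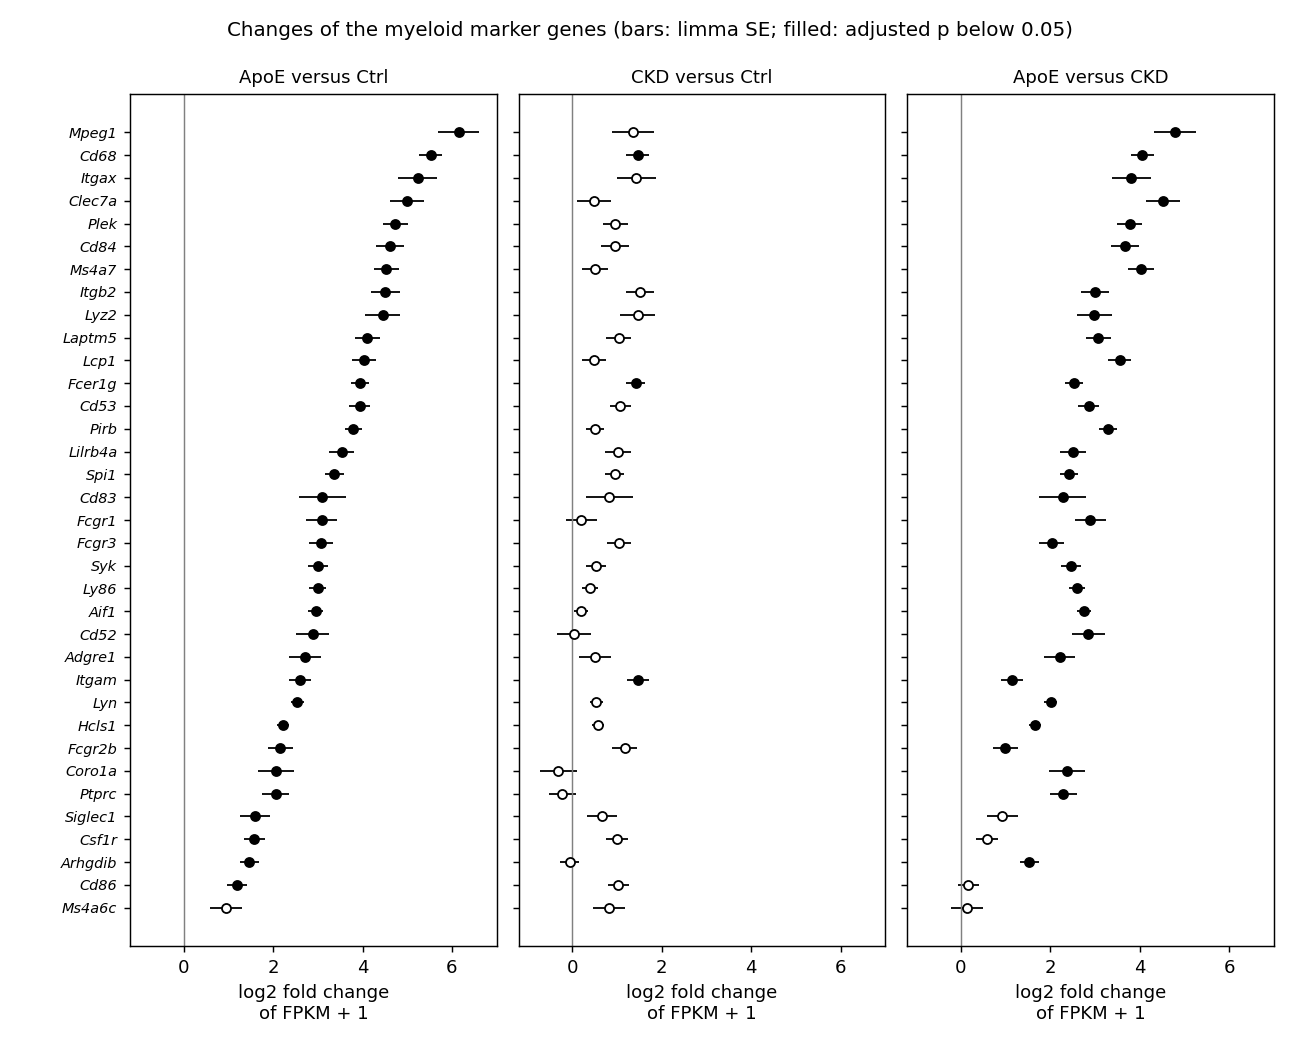
Log2 fold change of FPKM + 1 with limma's standard error (bars) for the 35 genes, ordered by ApoE versus Ctrl, in panels for ApoE versus Ctrl, CKD versus Ctrl and ApoE versus CKD. Filled circles have an adjusted p below 0.05, which holds for 34, 3 and 31 genes in the 3 panels.

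In CKD aortas most of the 35 genes had levels above those of Ctrl aortas, but few passed the test. Of the 35, 3 were called higher and 0 lower, while 2.23% of all genes tested were called higher and 3.21% lower. The 3 were Fcer1g at 2.80 times the Ctrl mean (log2 1.42, SE 0.21, adjusted p = 0.0306), Itgam at 4.94 times (log2 1.47, SE 0.24, adjusted p = 0.0381) and Cd68 at 3.02 times (log2 1.46, SE 0.25, adjusted p = 0.0393). The per-library values above show both CKD libraries over both Ctrl libraries for each of them. Both CKD libraries stood above both Ctrl libraries for 26 of the 35 genes, which held for 29.1% of all genes tested. At an unadjusted p below 0.05 stood 20 of the 35 and 4217 of the 14074 genes tested. The median log2 fold change was 0.82, beside -0.03 for all genes. Itgb2 had the largest, 1.51 (SE 0.32), and its adjusted p was 0.0539. The lowest values were those of the pan-leukocyte genes Coro1a (-0.31, SE 0.41), Ptprc (-0.23, SE 0.30) and Arhgdib (-0.06, SE 0.21), with adjusted p-values of 0.642, 0.638 and 0.867. None of the 9 pan-leukocyte genes was called in CKD.

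The CKD calls depend on the libraries used. The ApoE libraries enter CKD versus Ctrl only through the estimate of spread that all libraries share. The median log2 fold change of the 35 was 0.82 with all libraries and without either ApoE library. It was 0.82 without Ctrl library 1, 0.81 without Ctrl library 2, 1.22 without CKD library 1 and 0.48 without CKD library 2. CKD library 2 exceeded CKD library 1 for 35 of 35 genes, with a median ratio of 1.76 and a range of 1.01 (Cd86) to 4.19 (Cd83). CKD library 1 stood above both Ctrl libraries for 26 genes and below both for 5, and CKD library 2 stood above both for 33. The share of all genes was not computed for these counts or for the order of the CKD libraries. They are therefore not read as particular to the 35 genes. Without either Ctrl library or either ApoE library 0 of the 35 were called in CKD versus Ctrl, without CKD library 1 there were 3 (Itgb2, Fcer1g and Mpeg1), and without CKD library 2 there were 4 (Cd68, Itgb2, Fcer1g and Cd53). Fat and lining-cell markers also differed between these libraries. The summed level of 12 white adipocyte genes was 9927 and 3224 FPKM in the CKD libraries, against 527 and 1281 in the Ctrl libraries, and that of 8 mesothelial genes was 74.3 and 61.1 in the CKD libraries, against 18.2 and 16.2 in the Ctrl libraries. With the adipocyte level as a covariate, 0 of the 35 genes were called in CKD versus Ctrl and 30 in ApoE versus Ctrl. Of all 14074 genes tested, 0 and 1758 were then called, in place of 766 and 6208. The median log2 fold changes of the 35 were then 1.61 and 4.02, in place of 0.82 and 3.09. The summed adipocyte level was lower in both Ctrl libraries than in every ApoE or CKD library, so it is confounded in part with group. The slope of the covariate rests only on differences between libraries of the same group. This fit therefore cannot tell what part fat has in the levels of the 35. Beside that of Ptprc, the covariate ended the ApoE versus Ctrl calls of Coro1a (adjusted p = 0.162), Cd83 (adjusted p = 0.0551) and Cd86 (adjusted p = 0.0917). The log2 fold changes with the covariate were 2.37 for Ptprc, 2.29 for Coro1a, 4.23 for Cd83 and 1.48 for Cd86, each above the value without it. The part of the mesothelial cells in the result was not tested.

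Set directly against each other, ApoE aortas exceeded CKD aortas for most of the myeloid genes. Of the 35, 31 were called higher and 0 lower in ApoE, while 18.5% of all genes tested were called higher and 21.2% lower. Both ApoE libraries stood above both CKD libraries for 33 of the 35, which held for 33% of all genes tested. The median log2 fold change was 2.53, beside -0.04 for all genes. Mpeg1 had the largest, 4.79 (SE 0.47, adjusted p = 0.00146), followed by Clec7a with 4.52 (SE 0.38), Cd68 with 4.06 (SE 0.25) and Ms4a7 with 4.02 (SE 0.28). The 4 genes not called were Ms4a6c (log2 0.13, SE 0.36, adjusted p = 0.801), Cd86 (log2 0.17, SE 0.23, adjusted p = 0.595), Csf1r (log2 0.58, SE 0.24, adjusted p = 0.104) and Siglec1 (log2 0.93, SE 0.34, adjusted p = 0.0767). Ms4a6c and Cd86 were also those whose ApoE and CKD libraries overlapped. The call of Fcgr2b was lost without any 1 library other than CKD library 2, that of Cd83 without either ApoE library, that of Coro1a without ApoE library 1 and that of Itgam without CKD library 1. The log2 fold change of Fcgr2b was 0.99 with all libraries and without either Ctrl library, which enter this comparison only through the shared spread. It was 0.74 without ApoE library 1, 1.25 without ApoE library 2 and 0.64 without CKD library 1. Without CKD library 2, Csf1r (adjusted p = 0.0309) and Siglec1 (adjusted p = 0.0261) were called higher. The comparisons of ApoE and of CKD with Ctrl share the Ctrl libraries, so their values are given side by side and no relation between them was computed.

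The changes differed widely within the group, so each gene was also set against Ptprc (CD45), which all leukocytes carry, in the same library. Differences of log2 values from that of Ptprc were fitted with the same model for the other 34 genes. The error of Ptprc, whose Ctrl libraries had 1.28 and 2.39 FPKM, enters every such difference, so these p-values are too small, and counts with each gene's own spread alone are given beside them. Relative to Ptprc, 20 of the 34 were called higher and 1 lower in ApoE versus Ctrl, while 1.31% of all genes tested were called higher and 88.9% lower. With each gene's own spread the counts were 18 higher and 1 lower. Mpeg1 (4.09), Cd68 (3.46), Itgax (3.18), Clec7a (2.94) and Plek (2.68) had the largest log2 differences, and Ms4a6c was the gene called lower (-1.12). With the adipocyte covariate 8 were called higher and 0 lower, beside 34 higher and 4736 lower of all 14073 genes tested. Cd86 (-0.86), Arhgdib (-0.59), Csf1r (-0.48) and Siglec1 (-0.46) were below Ptprc without passing the test. With Spi1 in place of Ptprc, 11 were called higher and 11 lower, while 55 of all 14073 genes tested were called higher and 13744 lower.

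Between the disease models, 9 of the 34 were called higher and 6 lower relative to Ptprc in ApoE versus CKD, while 0.632% of all genes tested were called higher and 93.7% lower. With each gene's own spread the counts were 8 and 6. Without ApoE library 2 they were 3 and 3. With a pseudocount of 0.1 they were 3 and 6, and the median log2 difference was -0.11 in place of 0.27. The 9 were Mpeg1, Clec7a, Cd68, Ms4a7, Itgax, Plek, Cd84, Lcp1 and Pirb. The 6 were Ms4a6c (-2.16), Cd86 (-2.12), Csf1r (-1.71), Siglec1 (-1.36), Fcgr2b (-1.29) and Itgam (-1.15). In CKD versus Ctrl, 7 of the 34 were called higher and 0 lower relative to Ptprc, while 2.53% of all genes tested were called higher and 0.355% lower. The 7 were Itgb2, Itgam, Itgax, Cd68, Lyz2, Fcer1g and Mpeg1, with log2 differences of 1.59 to 1.74. With each gene's own spread 0 were called, and without Ctrl library 2 or either ApoE library 0 were called. Without CKD library 1, 2 were called. The direction depends on the gene used as the base, for all genes as well as for these. With Spi1 in place of Ptprc, 0 were called higher and 5 lower in CKD versus Ctrl. Of all 14073 genes tested, 134 were then called higher and 10179 lower. The median log2 difference was -0.13 in place of 1.12, and over all genes -0.98 in place of 0.20. In ApoE versus CKD, Spi1 gave 10 higher and 8 lower, beside 103 higher and 13480 lower of all genes.

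**Figure D3:**
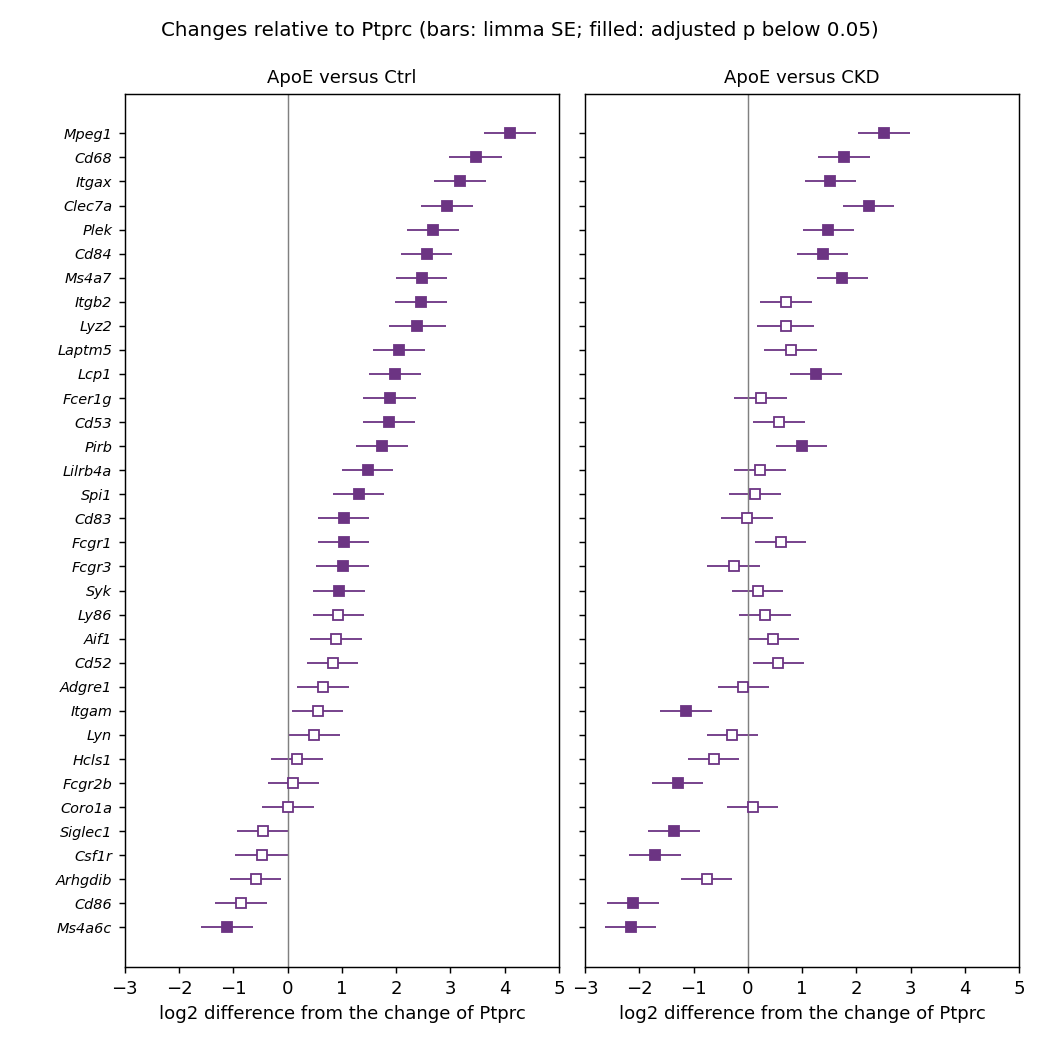
Log2 fold change of 34 genes minus that of Ptprc in the same libraries, with limma's standard error (bars), for ApoE versus Ctrl (left) and ApoE versus CKD (right), ordered by the left panel. Filled squares have an adjusted p below 0.05, and the lowest values are those of Ms4a6c, at -1.12 and -2.16.

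The ApoE libraries did not differ from each other in one direction. ApoE library 1 was higher for 19 of the 35 genes and ApoE library 2 for 16. The ratio of library 2 to library 1 ran between 0.595 (Fcgr1) and 1.86 (Lyz2). Fcgr1, Itgam, Siglec1, Ms4a6c, Cd86, Lilrb4a and Adgre1 had ratios of 0.595 to 0.642, and Itgax and Laptm5 had 1.62 and 1.58. A group of monocyte and neutrophil genes differed between the same libraries, with a summed level of 129 FPKM in ApoE library 1 and 38.3 in ApoE library 2. It was 14.3 and 39.3 in the CKD libraries and 7.90 and 35.4 in the Ctrl libraries. The part of these cells in the members' levels was not tested. The Ctrl libraries differed most for Clec7a (2.30 and 0.776 FPKM) and for Coro1a (9.20 and 19.0 FPKM).

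Genes that work with these markers were taken from lists of other names, also written with earlier results of these data known. Beside the counts of all lists below, 19.8% of all genes tested were called higher and 24.3% lower in ApoE versus Ctrl. The shares were 2.23% and 3.21% in CKD versus Ctrl, and 18.5% and 21.2% in ApoE versus CKD. All 20 genes of a list of Fc receptor and ITAM signalling, the tyrosine-based pathway below Fcer1g, were called higher in ApoE versus Ctrl, with a median log2 of 2.73. Tyrobp, the adaptor DAP12 and its most abundant gene, stood at 449 and 546 FPKM in ApoE, 49.99 and 75.6 in CKD and 26.9 and 25.1 in Ctrl. In CKD versus Ctrl 2 of the 20 were called higher, Tyrobp (log2 1.21, SE 0.24, adjusted p = 0.0471) and Lat2. In ApoE versus CKD 19 of the 20 were called higher. Fcgr4, the fourth Fc receptor for IgG in mouse, stood at 55.9 and 66.8 FPKM in ApoE, 1.13 and 3.36 in CKD and 2.39 and 1.68 in Ctrl.

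Of 9 growth factor and receptor genes tested, 5 were called higher and 0 lower in ApoE versus Ctrl. The receptor chains Csf2ra (log2 3.06, SE 0.22) and Csf2rb (log2 4.91, SE 0.26) rose, and Csf1, the main ligand of Csf1r, had 26.7 and 14.6 FPKM in ApoE, 28.9 and 35.6 in CKD and 23.1 and 25.7 in Ctrl (ApoE versus Ctrl log2 -0.29, SE 0.28, adjusted p = 0.446). In CKD versus Ctrl Csf2rb and Il3ra were called higher. Of 13 myeloid transcription factors tested, 10 were called higher and 0 lower in ApoE versus Ctrl. In CKD versus Ctrl 2 of the 13 were called higher, Irf5 among them, and 0 lower. In ApoE versus CKD 9 of the 13 were called higher and Klf4 was called lower (log2 -1.12, SE 0.18, adjusted p = 0.0058).

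Of 20 other macrophage markers, 15 were called higher and 0 lower in ApoE versus Ctrl, with a median of 2.35. Ctss, a lysosomal protease, stood at 1756 and 2210 FPKM in ApoE, 71.9 and 162 in CKD and 37.7 and 31.2 in Ctrl. In CKD versus Ctrl 6 of the 20 were called higher, among them the complement genes C1qa (log2 1.28, SE 0.23), C1qb (1.38, SE 0.23) and C1qc (1.33, SE 0.22). In ApoE versus CKD 12 were called higher and 2 lower. The 2 were Lyve1, with 43.5 and 13.4 FPKM in ApoE, 89.7 and 141 in CKD and 40.4 and 44.1 in Ctrl (log2 -2.17, SE 0.53, adjusted p = 0.0229), and Cd163, with 18.3 and 9.20 FPKM in ApoE, 28.8 and 60.4 in CKD and 25.4 and 24.9 in Ctrl (log2 -1.61, SE 0.42, adjusted p = 0.0286). Both are known from resident macrophages of the adventitia and were named after their values were seen. Other genes of the list known from resident macrophages were not called in ApoE versus CKD, with Folr2 at a log2 of 0.69, SE 0.29, adjusted p = 0.112, Mrc1 at -0.02, SE 0.44, adjusted p = 0.976 and Timd4 at -0.12, SE 0.31, adjusted p = 0.789.

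Markers of other cells were examined for the same libraries. None of 9 T cell genes tested was called in ApoE versus Ctrl, and the summed level of 12 T cell genes was 13.4 and 29.7 FPKM in ApoE, 2.27 and 2.56 in CKD and 5.95 and 43.1 in Ctrl. Of 7 B cell genes tested, Cd22 and Jchain were called higher in ApoE versus Ctrl, and the sum of 12 was 20.8 and 53.1 FPKM in ApoE, 2.68 and 2.17 in CKD and 5.77 and 25.9 in Ctrl. Ctrl library 2 held the most T cell signal and also had the higher Ptprc, Coro1a and Cd52 of the pair. None of 2 natural killer genes tested was called in ApoE versus Ctrl. Of 6 dendritic cell genes 3 were called higher in ApoE versus Ctrl, among them Clec10a and Batf3, and Clec10a was called in CKD versus Ctrl. Of 11 monocyte and neutrophil genes 3 were called higher in ApoE versus Ctrl and 0 in CKD versus Ctrl. Of 7 mast cell genes 4 were called higher in ApoE versus Ctrl and 5 in CKD versus Ctrl, with summed levels of 63.7 and 62.8 FPKM in ApoE, 80.6 and 85.8 in CKD and 30.1 and 42.1 in Ctrl. Of 9 red cell and platelet genes 3 were called higher in ApoE versus Ctrl. The share of all genes tested called higher was 19.8% in ApoE versus Ctrl and 2.23% in CKD versus Ctrl. These small counts are not read as changes of a cell type.

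Tissue genes differed between the groups as well, in both directions. All 12 contractile smooth muscle genes were called lower in ApoE versus Ctrl, with a summed level of 740 and 644 FPKM in ApoE, 3904 and 6618 in CKD and 9286 and 8320 in Ctrl. Acta2, smooth muscle actin, stood at 494 and 437 FPKM in ApoE, 2393 and 4527 in CKD and 6034 and 5402 in Ctrl. The sum of 12 adipocyte genes was 4080 and 4401 FPKM in ApoE, 9927 and 3224 in CKD and 527 and 1281 in Ctrl, and 9 of the 12 were called higher in ApoE versus Ctrl. Of 8 fibroblast genes 5 were called lower in ApoE versus Ctrl, of 10 endothelial genes 6 were called higher and 1 lower, and of 7 mesothelial genes 4 were called higher. FPKM are shares of a library, and the part of the lower muscle share in the myeloid levels was not tested.

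**Figure D4:**
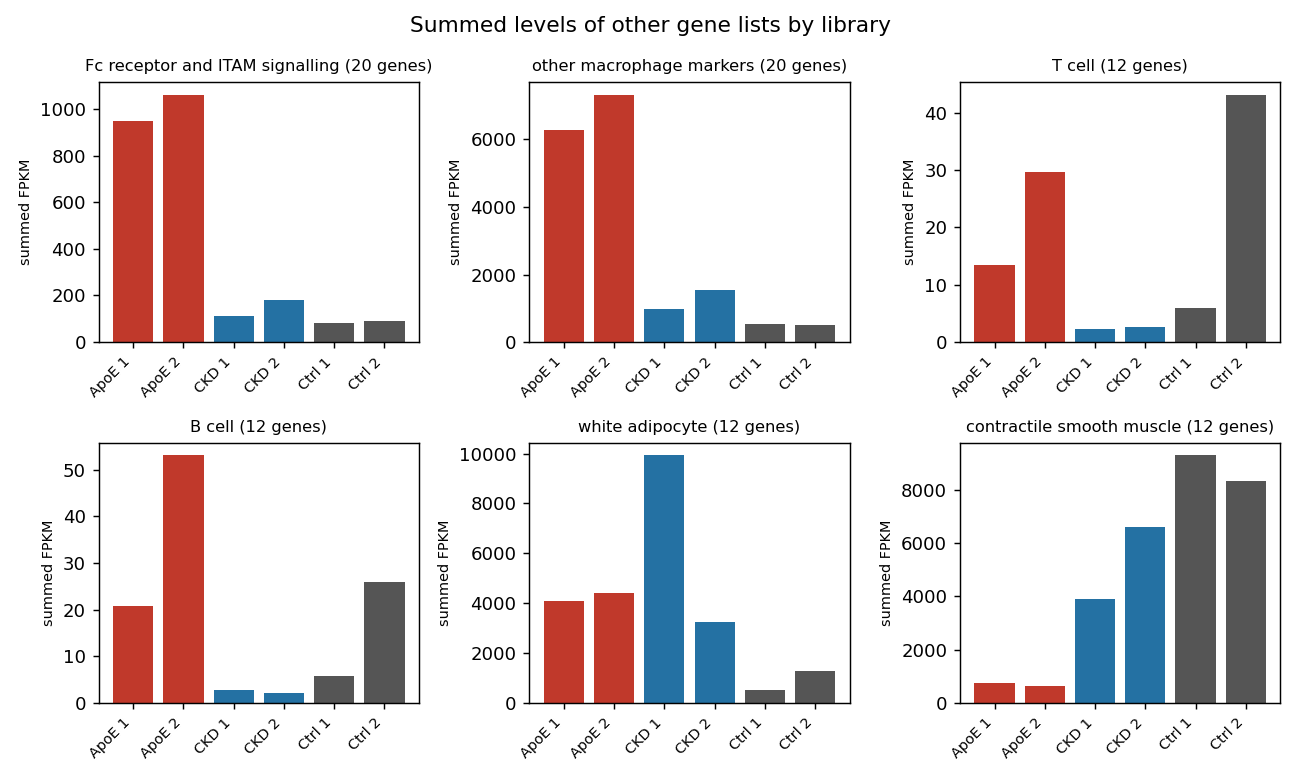
Summed FPKM of 6 marker lists in each library, with bars starting at 0 and red for ApoE, blue for CKD and grey for Ctrl. The Fc receptor and macrophage lists stand highest in both ApoE libraries, the T cell list is highest in Ctrl library 2 with 43.1, the adipocyte list is highest in CKD library 1 with 9927, and the smooth muscle list is lowest in both ApoE libraries.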

How the data were processed

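Polyadenylated RNA of 6 mouse aorta libraries was analysed. Neither a header nor a label gives a unit, and the deposited values were read as FPKM because, multiplied by GENCODE M21 exon length, 93.9% to 94.3% of the low ones fell within 0.05 of whole reads, on a scale of 14.4 to 16.6 M reads. In 5 deposited files identifiers and values stand stacked in 1 column, recorded as other. Per the submitters' processing notes, the build was GRCm38 and the tools were TopHat2, HISAT2 2.1.0 and Bowtie2 2.2.3. What each did, and which counter and annotation were used, is not given in the sources used here. The kit did not mark strand, per the labels' protocols. Of 27815 identifiers 27730 were matched to symbols and exon lengths. Libraries of a group differed by 17.9 (Ctrl) to 68.5 (CKD) times the degrees of freedom in a chi-square over reads, so none was a copy.

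Log2 values (FPKM plus a pseudocount of 1, computed from the deposited FPKM) of genes with at least 1 FPKM in 2 libraries entered limma 3.58.1 (R 4.3.3), with all 6 libraries in a model of group means, a variance trend and robust moderation. P-values were Benjamini-Hochberg adjusted over 14074 genes. The script was tested on simulated data. Members and lists were chosen with earlier results of these data known. Named with all values are, in each role group, the members with the largest and smallest ApoE versus Ctrl change, all members of small role groups and those called in CKD versus Ctrl; from other lists, the most abundant genes, 1 of which is not reported here. Replicate numbers, pseudocount, filter, scaling, libraries, adipocyte level and the gene in place of Ptprc were varied. Promoter windows are from RefSeq. Protein sequences were not used here.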

Additional observations from a re-analysis of the deposited data

How the results depend on the processing

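With 2 libraries a group, precision is limited by replicates, and depth allows values down to about 0.03 FPKM in a 2 kb gene. For ApoE versus Ctrl, 34 of the 35 genes were called with a pseudocount of 0.1, with no filter, with median-ratio scaling and with a replicate block, 35 with only the 4 libraries compared, 30 with the adipocyte covariate and 32 to 35 leaving out 1 library; no direction changed. For ApoE versus CKD the count was 28 to 33 over the same alternatives. For CKD versus Ctrl it was 3 with the other pseudocount, 4 with median-ratio scaling, and 0 with no filter, with only the 4 libraries compared, with a replicate block or with the adipocyte covariate, and 0 to 4 leaving out 1 library. Over all genes CKD versus Ctrl had 766 calls, but 1 with no filter, 1 with only the 4 libraries compared, 46 with a replicate block, 0 with the adipocyte covariate and 0 to 2416 leaving out 1 library. ApoE versus Ctrl had 6208, with 1758 under the adipocyte covariate and 3021 (without Ctrl 1) to 7019 (without CKD 1) leaving out 1 library. ApoE versus CKD had 5592, with 2914 (without ApoE 2) to 5045 (without CKD 2). Same-numbered libraries did not deviate together (r = 0.0457 for ApoE and Ctrl, -0.233 for CKD and Ctrl, -0.0966 for ApoE and CKD), so the numbers were not treated as pairs. With the CKD numbers exchanged in the replicate block, an alternative added after seeing the data, 11 of the 35 genes were called in CKD versus Ctrl. Of all 14074 genes tested, 579 were then called higher and 651 lower, in place of 314 and 452. Directions turned in CKD versus Ctrl for Ptprc (0.10) and Arhgdib (0.53) with the adipocyte covariate. Leaving out 1 library, they turned for Ptprc (range -0.58 to 0.11), Coro1a (-0.80 to 0.18), Arhgdib (-0.36 to 0.24), Cd52 (-0.50 to 0.57) and Fcgr1 (-0.24 to 0.63), with the turns in the fits without CKD 1, CKD 2, Ctrl 1 or Ctrl 2. In ApoE versus CKD they turned for Ms4a6c (-0.33 to 0.58) and Cd86 (-0.13 to 0.46), without ApoE 1 for both and without CKD 1 for Ms4a6c. Relative to Ptprc, 21 genes were called in ApoE versus Ctrl, 7 in CKD versus Ctrl and 15 in ApoE versus CKD. These became 16, 1 and 9 with a pseudocount of 0.1, 21, 4 and 15 with no filter, 24, 0 and 15 with only the 4 libraries compared, 20, 6 and 15 with a replicate block, 8, 0 and 13 with the adipocyte covariate, 14 to 24, 0 to 6 and 6 to 15 leaving out 1 library, 19, 0 and 14 with each gene's own spread and no moderation, and 22, 5 and 18 with Spi1 in place of Ptprc, where all 5 calls in CKD versus Ctrl were lower while the 7 relative to Ptprc were higher. The last 2 alternatives were also added after seeing the data. Relative to Spi1, 10179 of all 14073 genes tested were called lower in CKD versus Ctrl, beside 50 relative to Ptprc. The cause of these shifts was not tested.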
